A study of Mus musculus with 11 samples.

Results

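The genes described here encode 9 enzymes that turn farnesyl diphosphate, through squalene and lanosterol, into cholesterol: *Fdft1*, *Sqle*, *Lss*, *Cyp51*, *Msmo1*, *Nsdhl*, *Hsd17b7*, *Sc5d* and *Dhcr7*. They were chosen by name for their step in the pathway, and all 9 were found among the 54232 gene identifiers in the count files. Each of the 9 passed the filter on low counts, which left 13303 genes to be tested. In hepatocytes, cholesterol made by this route supplies membranes, lipoproteins and bile acids. Its enzymes sit in the membrane of the endoplasmic reticulum, and many of their genes are known targets of the sterol-sensing transcription factor SREBP-2, which is released for cleavage when membrane sterol is low. XBP1, a transcription factor of the unfolded protein response, has been linked to hepatic lipid synthesis in earlier work.

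The study compared hepatocytes of mice that lack hepatocyte XBP1 with those of floxed controls, on chow or on a diet rich in fat and sugar (HFS diet). All mice were adult males on the C57BL/6 background. *Xbp1* LKO mice carried floxed *Xbp1* alleles with Cre under the albumin promoter, and *Xbp1* fl/fl controls carried the floxed alleles. Mice received standard chow and water, or a Western-type diet with fructose and glucose in the drinking water, for up to 6 weeks, and were fasted before their livers were taken. Hepatocytes were isolated, purified over Percoll and sequenced as single-end RNA-seq libraries. The 11 libraries analysed here came from 3 chow-fed *Xbp1* fl/fl mice, 2 chow-fed *Xbp1* LKO mice, and 3 pools of 2 mice each for HFS-fed *Xbp1* fl/fl and for HFS-fed *Xbp1* LKO animals. Diet therefore cannot be told apart from pooling, since each chow library is 1 mouse and each HFS library is 2. Total counts ran from 19515273 to 21917294 in *Xbp1* fl/fl libraries on chow and were 21572701 and 19191032 in *Xbp1* LKO libraries on chow. On the HFS diet they ran from 21501344 to 22573249 in *Xbp1* fl/fl and from 23232834 to 23888401 in *Xbp1* LKO libraries. At this depth a sterol enzyme gene had between 48 and 13424 counts in a library.

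*Xbp1*, the deleted gene, was measured first as a check of the labels. Its expression in TMM-scaled counts per 1000000 (CPM, the unit used throughout) was 194, 200.3 and 221 in *Xbp1* fl/fl mice on chow and 95.7 and 128 in *Xbp1* LKO mice on chow. On the HFS diet it was 301, 295 and 242 CPM in *Xbp1* fl/fl and 117, 97.3 and 135 CPM in *Xbp1* LKO libraries. Every *Xbp1* LKO library lay below every *Xbp1* fl/fl library, so the labels and the target gene match. *Xbp1* fell on chow (log2 fold change -0.87, standard error 0.18, edgeR adjusted p = 0.0183) and on the HFS diet (-1.26, 0.16 and 0.00254). The call on the HFS diet held in 11 of 11 fits that left out a library, and the call on chow in 9, all but those without the first or the second chow-fed *Xbp1* LKO library. Counts are for the gene as a whole, in which the deleted exon is not counted apart.

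The hepatocyte label was checked against marker genes of liver cell types. The 8 hepatocyte markers, of which *Alb* was the most abundant, summed to 118000, 144500 and 152500 CPM in chow-fed *Xbp1* fl/fl and 56530 and 27170 CPM in chow-fed *Xbp1* LKO libraries. On the HFS diet the sum was 102800, 94090 and 113700 CPM in *Xbp1* fl/fl and 72770, 43640 and 51690 CPM in *Xbp1* LKO libraries. Hepatocyte transcripts thus stood far above those of any other cell type in each library. On each diet the sum was lower in every *Xbp1* LKO than in every *Xbp1* fl/fl library. *Alb* made up most of the sum throughout. Its log2 fold change between genotypes was -2.14 on chow and -0.86 on the HFS diet. Of the 8 markers, 7 had negative values on each diet, but those of *Hnf4a* were small (-0.08 and -0.09). Those of *Cyp7a1* were positive (0.92 and 0.14). The 8 macrophage markers, led by *Cd5l*, summed to 62.3, 14.2 and 14.9 CPM in *Xbp1* fl/fl and 15.0 and 23.5 CPM in *Xbp1* LKO mice on chow, and to 40.1, 32.4 and 28.8 CPM and 39.4, 41.9 and 72.6 CPM on the HFS diet. In the same order, the 8 sinusoidal endothelial markers, led by *Stab2*, summed to 94.2, 39.8 and 50.2, 32.8 and 24.4, 131, 79.8 and 105, and 97.9, 70.5 and 61.7 CPM. The 8 stellate markers, led by *Dcn*, summed to 33.4, 11.4 and 14.2, 7.04 and 7.73, 33.9, 20.8 and 19.8, and 49.9, 28.0 and 23.6 CPM. Of these, *Col1a1*, *Des* and *Acta2* stayed under 1 CPM in every library. The 7 cholangiocyte markers, led by *Spp1*, summed to between 6.07 and 23.6 CPM, and *Krt19*, *Krt7*, *Epcam* and *Cldn7* were under 1 CPM in every library. The 5 lymphocyte markers, led by *Ptprc*, summed to 2.99 CPM or less, and *Cd3e*, *Cd79a*, *Ms4a1* and *Nkg7* were under 1 CPM throughout. No marker was at 0 in all libraries. Endothelial and stellate sums were higher in the HFS-fed than in most chow-fed libraries, while the sterol enzyme genes were lower there, and the part of other cells in those differences was not tested, nor that of the lower hepatocyte marker sums. In bulk RNA, fewer cells of a type and less RNA per cell cannot be told apart.

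Levels of different genes were compared per kilobase of summed exon length, first for *Xbp1* fl/fl mice on chow. *Sc5d* had the highest level, 130.5 ± 8.85 CPM per kb (SD, n = 3), and by this length its libraries did not overlap those of any other sterol enzyme gene. *Cyp51* (57.6 ± 11.3 CPM per kb), *Nsdhl* (49.9 ± 10.6) and *Msmo1* (43.3 ± 16.8) came next and did not differ beyond their spread. The following 4 genes were as close to each other, with *Fdft1* at 27.0 ± 8.56 CPM per kb, *Dhcr7* at 24.8 ± 9.97, *Sqle* at 22.5 ± 10.5 and *Hsd17b7* at 21.6 ± 4.99. *Lss* was the lowest, at 7.85 ± 2.56 CPM per kb. With the longest transcript as the length, *Sc5d* stayed first and *Lss* last in this group, but *Msmo1* moved to 89.7 ± 34.8 CPM per kb, and its libraries then overlapped those of *Sc5d*. With the longest APPRIS principal transcript as the length, *Msmo1* had a mean of 130.3 and *Sc5d* of 132.7 CPM per kb (n = 3), while *Sqle* moved to 45.2 and *Dhcr7* to 51.2 CPM per kb. How far *Sc5d* stands above the rest and the order of the middle genes therefore depend on the length used. In both HFS-fed groups *Sqle* took the last place per summed exon length, with 0.761 ± 0.460 CPM per kb (SD, n = 3) in *Xbp1* fl/fl and 1.05 ± 0.558 CPM per kb (SD, n = 3) in *Xbp1* LKO libraries.

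The diet comparison in *Xbp1* fl/fl hepatocytes asks what HFS feeding does when XBP1 is present. The HFS diet lowered 8 of the 9 genes, all but *Dhcr7*, by edgeR (quasi-likelihood test, Benjamini-Hochberg adjusted p under 0.05), whereas 0.293% of all genes tested were called lower. For all 9 genes, each HFS-fed library was below each chow-fed library, a pattern that 7.34% of all genes tested shared. The median log2 fold change of the 9 genes was -1.77, against -0.0056 over all genes tested. Of the other-cell markers, 4 of 8 for macrophages (median 0.11) and 8 of 8 for endothelial cells (0.82) had positive values. So had 6 of 6 tested for stellate cells (0.49). Of 3 tested cholangiocyte markers (median -0.91), 2 were negative, *Sox9* (log2 fold change -0.91) and *Tstd1* (-1.23). For both, each HFS-fed library was below each chow-fed library, but neither passed edgeR's test. The part of these cells in the sterol enzyme values was not tested. The values follow in the order of the pathway.

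Squalene is made and then oxidised by the products of *Fdft1* and *Sqle*. *Fdft1* (ENSMUSG00000021273, chr14:63145150-63179578 of GRCm38, minus strand) encodes squalene synthase, which joins a pair of farnesyl diphosphate molecules. Its expression was 150, 115 and 77.7 CPM in chow-fed and 40.1, 38.2 and 38.3 CPM in HFS-fed *Xbp1* fl/fl libraries. The HFS-fed libraries, each a pool of 2 mice, were nearly equal, while the chow-fed ones, each 1 mouse, were spread widely. The part of pooling in this was not tested. *Fdft1* fell 2.94-fold (log2 fold change -1.56, standard error 0.21, adjusted p = 0.0103 by the quasi-likelihood test of edgeR after Benjamini-Hochberg adjustment, as for each adjusted p that follows). *Sqle* (ENSMUSG00000022351, chr15:59315077-59331192, plus strand) encodes squalene epoxidase, a rate-limiting enzyme of the sterol-specific part of the pathway. Its expression was 187, 116 and 71.3 CPM in chow-fed and 3.19, 7.13 and 2.35 CPM in HFS-fed *Xbp1* fl/fl libraries. The lowest chow-fed library was thus far above the highest HFS-fed one. *Sqle* had the largest fall of the 9 genes, 29.6-fold (log2 fold change -4.89, standard error 0.53, edgeR adjusted p = 0.00330).

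The first sterol ring is formed and trimmed by lanosterol synthase and lanosterol demethylase. *Lss* (ENSMUSG00000033105, chr10:76531588-76557138, plus strand) encodes the synthase, which folds oxidised squalene into lanosterol. It was measured at 111, 87.9 and 55.6 CPM in chow-fed and 33.2, 24.9 and 28.2 CPM in HFS-fed *Xbp1* fl/fl libraries, with the third chow-fed library nearest to the HFS-fed ones. *Lss* fell 2.94-fold (log2 fold change -1.56, standard error 0.21, edgeR adjusted p = 0.0126). *Cyp51* (ENSMUSG00000001467, chr5:4081145-4104746, minus strand) encodes the cytochrome P450 that removes a methyl group from lanosterol. It stood at 312, 226 and 225 CPM in chow-fed and 37.5, 21.5 and 19.8 CPM in HFS-fed *Xbp1* fl/fl libraries, a wide gap with no overlap. *Cyp51* fell 9.67-fold (log2 fold change -3.27, standard error 0.38, edgeR adjusted p = 0.00509).

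The paired methyl groups that remain on the sterol ring are removed in turn by the products of *Msmo1*, *Nsdhl* and *Hsd17b7*. *Msmo1* (ENSMUSG00000031604, chr8:64718139-64733792, minus strand) encodes the oxidase that opens each round. Its expression was 381, 237 and 181 CPM in chow-fed and 41.5, 33.8 and 42.0 CPM in HFS-fed *Xbp1* fl/fl libraries. The HFS-fed libraries, again pools, lay close together. *Msmo1* fell 6.81-fold (log2 fold change -2.77, standard error 0.29, edgeR adjusted p = 0.00330). *Nsdhl* (ENSMUSG00000031349, chrX:72918557-72958514, plus strand) encodes the decarboxylating dehydrogenase of the next step. It was at 174, 140 and 113 CPM in chow-fed and 25.7, 18.7 and 15.9 CPM in HFS-fed *Xbp1* fl/fl libraries, again without overlap. *Nsdhl* fell 7.08-fold (log2 fold change -2.82, standard error 0.37, edgeR adjusted p = 0.01005). *Hsd17b7* (ENSMUSG00000026675, chr1:169949535-169969241, minus strand) encodes the reductase that closes the round. It was at 139, 99.7 and 91.9 CPM in chow-fed and 47.6, 35.6 and 44.1 CPM in HFS-fed *Xbp1* fl/fl libraries, a narrower gap than for the other genes of this step. *Hsd17b7* fell 2.60-fold (log2 fold change -1.38, standard error 0.17, edgeR adjusted p = 0.00796).

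The last genes act on the double bonds of the ring. *Sc5d* (ENSMUSG00000032018, chr9:42251595-42264256, minus strand) encodes the desaturase that makes dehydrocholesterol. Its expression was 587, 651 and 668 CPM in chow-fed and 385, 339 and 318 CPM in HFS-fed *Xbp1* fl/fl libraries, the smallest relative gap of the 9 genes. *Sc5d* fell 1.83-fold (log2 fold change -0.87, standard error 0.15, edgeR adjusted p = 0.0439). *Dhcr7* (ENSMUSG00000058454, chr7:143823145-143848410, plus strand) encodes the reductase that turns dehydrocholesterol into cholesterol. It was at 197, 153 and 82.0 CPM in chow-fed and 34.8, 50.5 and 41.7 CPM in HFS-fed *Xbp1* fl/fl libraries, and the third chow-fed library was again the nearest to the HFS-fed group. Its log2 fold change of -1.77 (standard error 0.36) did not pass the threshold (edgeR adjusted p = 0.0657), whereas DESeq2 called it lower.

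**Figure D1:**
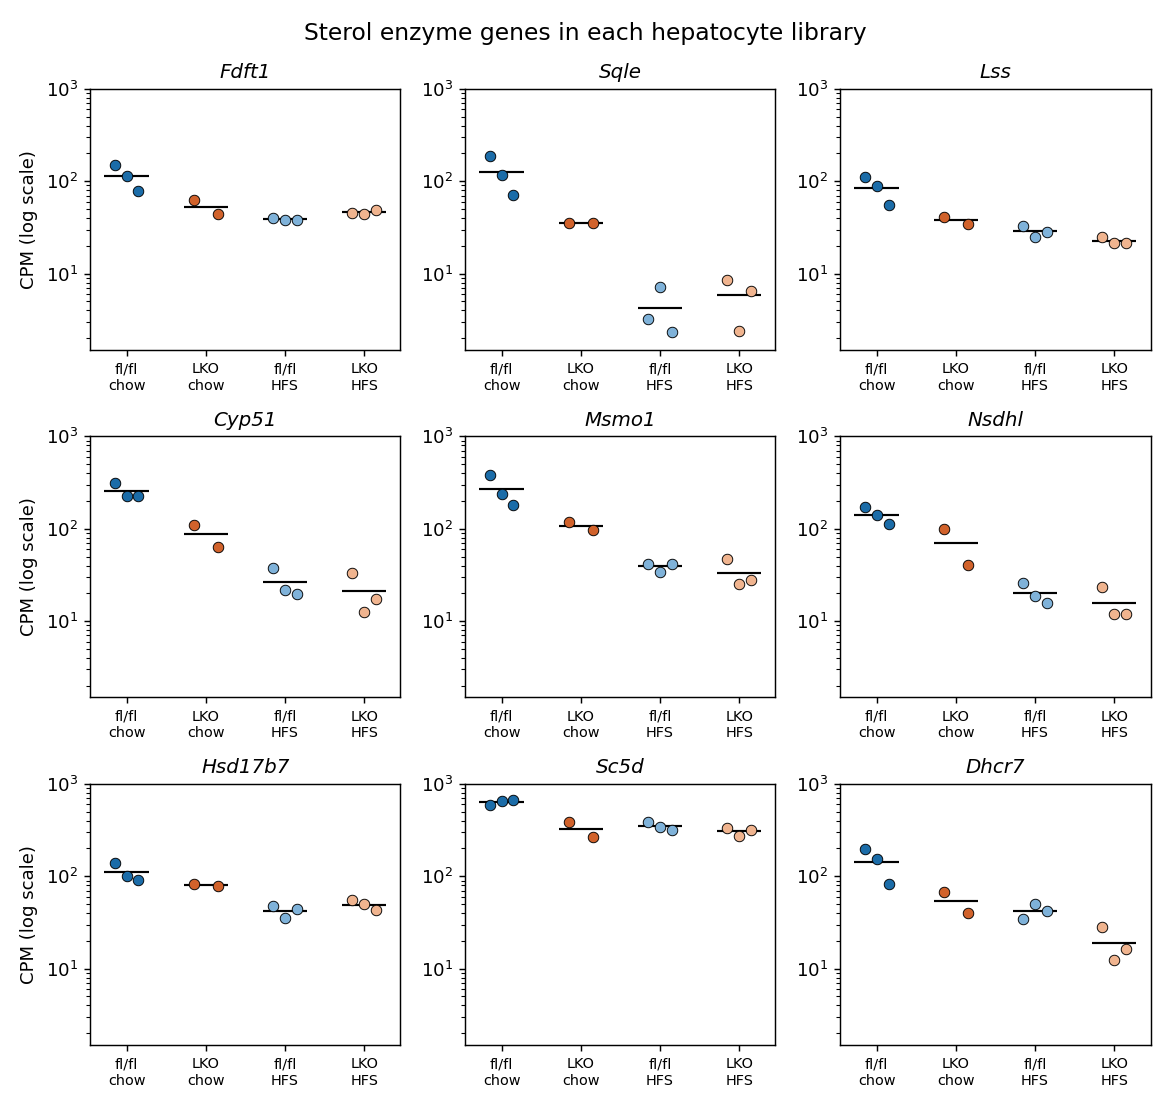
Expression in CPM (log scale) of the 9 sterol enzyme genes in each of 11 hepatocyte libraries, by genotype and diet; a point is a library and a line the group mean. *Sqle* lies between 71.3 and 187 CPM in chow-fed and between 2.35 and 7.13 CPM in HFS-fed *Xbp1* fl/fl libraries, while *Sc5d* keeps above 267 CPM in every library.

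Leaving out 1 library at a time showed how far these calls rest on single libraries. *Sqle* and *Msmo1* passed in 11 of the 11 fits. Over these fits the log2 fold change of *Sqle* ran from -5.49 to -4.47. Without the third HFS-fed *Xbp1* fl/fl library 2 of the 9 genes passed, without the second 4, and without the second chow-fed *Xbp1* fl/fl library 5. *Cyp51* and *Hsd17b7* were each lost without the third HFS-fed *Xbp1* fl/fl library alone, and *Nsdhl* without the second or the third of that group. *Fdft1* and *Lss* were lost without either of those libraries and without the second chow-fed *Xbp1* fl/fl library. *Sc5d* passed only in the 2 fits without a chow-fed *Xbp1* LKO library, and its adjusted p reached 0.226 in the other 9 (quasi-likelihood test of edgeR, Benjamini-Hochberg adjusted). *Dhcr7* passed in 2 of the 11 fits, without the third chow-fed *Xbp1* fl/fl or the first HFS-fed *Xbp1* LKO library.

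The same diet comparison was made in *Xbp1* LKO hepatocytes, where XBP1 is absent. By edgeR's quasi-likelihood test, adjusted after Benjamini-Hochberg, 0 of the 9 genes passed, beside 0.015% of all genes tested called lower. At an unadjusted p under 0.05, 7 genes were lower, beside 5.16% of all genes tested, and DESeq2 called 6 of the 9 lower, beside 0.451%. Those 6 were *Sqle*, *Cyp51*, *Msmo1*, *Nsdhl*, *Hsd17b7* and *Dhcr7*. The groups did not overlap for 7 of the 9 genes, all but *Fdft1* and *Sc5d*, a pattern seen for 14.4% of all genes tested. The median log2 fold change was -1.50, against -0.0027 over all genes tested. Markers of other cells had mostly positive values here, 8 of 8 for macrophages (median 1.34) and 8 of 8 for endothelial cells (1.52). So had 6 of 6 tested for stellate cells (2.40) and 2 of 3 tested for cholangiocytes (0.09). The part of these cells in the sterol enzyme values was not tested. With the first library of chow-fed *Xbp1* fl/fl mice left out, which enters only through the shared spread, 1 gene passed, *Msmo1*.

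Among the genes of squalene formation, *Fdft1* was at 62.5 and 43.8 CPM in chow-fed and 45.5, 44.6 and 48.8 CPM in HFS-fed *Xbp1* LKO libraries. These groups overlapped, and the log2 fold change was -0.20 (standard error 0.22), with a positive sign when the first chow-fed library was left out. *Sqle* was at 35.1 and 35.5 CPM in chow-fed and 8.47, 2.42 and 6.56 CPM in HFS-fed *Xbp1* LKO libraries. The chow-fed libraries were almost equal and both stood well above the HFS-fed ones (log2 fold change -2.61, standard error 0.51, edgeR adjusted p = 0.121). *Lss* was at 41.3 and 34.5 CPM against 24.7, 21.3 and 21.3 CPM, with no overlap (log2 fold change -0.76, standard error 0.23). *Cyp51* was at 109 and 64.1 CPM against 33.4, 12.5 and 17.4 CPM, with the first HFS-fed library the highest of its group (log2 fold change -2.04, standard error 0.39).

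Within the demethylation steps, *Msmo1* was at 118 and 97.9 CPM in chow-fed and 47.1, 25.2 and 28.2 CPM in HFS-fed *Xbp1* LKO libraries. *Nsdhl* was at 99.2 and 40.4 CPM against 23.5, 11.9 and 12.0 CPM. Neither gene overlapped between diets, although the chow-fed libraries of *Nsdhl* differed from each other more than those of *Msmo1*. The log2 fold changes were -1.69 (standard error 0.31) for *Msmo1* and -2.14 (standard error 0.38) for *Nsdhl*, both with an edgeR adjusted p = 0.0987. *Hsd17b7* was at 82.7 and 77.8 CPM against 55.2, 50.2 and 42.8 CPM (log2 fold change -0.70, standard error 0.18). *Sc5d* was at 384 and 267 CPM against 330, 271 and 315 CPM, so that the HFS-fed libraries lay within the range of the chow-fed ones (log2 fold change -0.09, standard error 0.17), and the sign was positive without the first chow-fed library. *Dhcr7*, which closes the pathway, was at 67.1 and 40.3 CPM against 28.4, 12.3 and 16.5 CPM, without overlap (log2 fold change -1.50, standard error 0.39).

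The genotype comparison on chow asks what loss of XBP1 does to these genes without HFS feeding. It uses the same chow-fed *Xbp1* fl/fl libraries as the diet comparison above, so the fold changes of both rest partly on the same values. Loss of XBP1 lowered 4 of the 9 genes, *Fdft1*, *Lss*, *Msmo1* and *Sc5d*, by edgeR (quasi-likelihood test, Benjamini-Hochberg adjusted p under 0.05), beside 3.02% of all genes tested. All 9 genes were lower at an unadjusted p under 0.05, beside 10.5% of all genes tested. For all 9, both *Xbp1* LKO libraries were below each *Xbp1* fl/fl library, a pattern that 15.9% of all genes tested shared. The median log2 fold change of the 9 genes was -1.16, against 0.0024 over all genes tested. In the same comparison markers of other cells also had mostly negative values: 8 of 8 macrophage (median -0.52), 8 of 8 endothelial (-1.28), 6 of 6 tested stellate (-1.40) and 3 of 3 tested cholangiocyte markers (-1.54), as had 7 of 8 hepatocyte markers (-0.78). By edgeR 2 cholangiocyte and 2 hepatocyte markers were called lower, and the part of these cells in the lower sterol enzyme values was not tested.

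Of the genes that passed, *Fdft1* fell 2.15-fold (log2 fold change -1.10, standard error 0.23, edgeR adjusted p = 0.0225). *Lss* fell 2.23-fold (log2 fold change -1.16, standard error 0.24, edgeR adjusted p = 0.0206). *Msmo1* fell 2.46-fold (log2 fold change -1.30, standard error 0.32, edgeR adjusted p = 0.0418). These genes act at separate steps, before, at and after the closing of the ring. *Sc5d*, at the end of the pathway, fell 1.95-fold (log2 fold change -0.96, standard error 0.18, edgeR adjusted p = 0.0118), and its chow-fed *Xbp1* LKO libraries were at the level of the HFS-fed groups. Larger fold changes that did not pass were those of *Sqle* (log2 fold change -1.82, standard error 0.52, edgeR adjusted p = 0.0714), *Cyp51* (-1.55, 0.41 and 0.0559) and *Dhcr7* (-1.42, 0.40 and 0.0709). *Nsdhl* had a log2 fold change of -1.03 (standard error 0.39, edgeR adjusted p = 0.170), and its *Xbp1* LKO libraries, at 99.2 and 40.4 CPM, were far apart. *Hsd17b7* differed least, with a log2 fold change of -0.46 (standard error 0.19, edgeR adjusted p = 0.206).

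The count on chow depended on single libraries and on the scaling. Without the second chow-fed *Xbp1* LKO library 0 of the 9 genes passed edgeR's test, and without the second chow-fed *Xbp1* fl/fl library 1 passed, *Sc5d*. In the first of these fits the lone *Xbp1* LKO library is assumed to vary like the other groups. *Sc5d* was lost in that fit alone, *Fdft1* and *Lss* in both, and *Msmo1* in 8 of 11 fits. *Msmo1* passed only without the third chow-fed *Xbp1* fl/fl, the first HFS-fed *Xbp1* LKO or the second HFS-fed *Xbp1* LKO library. *Cyp51* passed in 3 fits, without the first HFS-fed *Xbp1* fl/fl or the first or the second HFS-fed *Xbp1* LKO library. *Sqle* passed without the third chow-fed *Xbp1* fl/fl or the second HFS-fed *Xbp1* LKO library, *Dhcr7* without the same chow-fed or the first HFS-fed *Xbp1* LKO library, and *Nsdhl* without the first chow-fed *Xbp1* LKO library. Scaling by library totals instead of TMM moved the median log2 fold change of all genes to 0.33 on chow and 0.27 on the HFS diet. The 402 genes called lower and 230 called higher on chow became 315 and 2685, and the 287 lower and 256 higher on the HFS diet became 195 and 1288. The median of the 9 genes on chow was then -0.84, still below that of all genes, and 7 of the 9 passed; on the HFS diet it was 0.02. In a fit of the chow-fed groups alone, 1 of the 9 genes passed.

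Among HFS-fed mice, no sterol enzyme gene passed the test between genotypes, which does not by itself set this diet apart from chow; the interaction is given further on. By edgeR's quasi-likelihood test, adjusted after Benjamini-Hochberg, 0 of the 9 genes passed, beside 4.08% of all genes tested called in either direction and 2.16% called lower. At an unadjusted p under 0.05, 1 gene was lower, beside 8.6% of all genes tested, and DESeq2 called 1 lower, beside 4.08%. That gene was *Dhcr7*, which was at 34.8, 50.5 and 41.7 CPM in *Xbp1* fl/fl and 28.4, 12.3 and 16.5 CPM in *Xbp1* LKO libraries. Its *Xbp1* LKO libraries were all below the *Xbp1* fl/fl ones (log2 fold change -1.15, standard error 0.36, edgeR adjusted p = 0.101), and it passed in 1 of 11 fits, without the first HFS-fed *Xbp1* LKO library. The groups failed to overlap, with *Xbp1* LKO lower, for 2 genes, *Lss* and *Dhcr7*, beside 12.5% of all genes tested. They failed to overlap, with *Xbp1* LKO higher, for 1 gene, *Fdft1*, beside 13.6% of all genes tested. The median log2 fold change of the 9 genes was -0.22, against 0.0083 over all genes tested. Macrophage markers were positive for 8 of 8 (median 0.58), endothelial markers for 0 of 8 (-0.45) and stellate markers for 5 of 6 tested (0.46). Hepatocyte markers were negative for 7 of 8 (median -0.71), and 1, *Apoa1*, was called lower (log2 fold change -1.45, edgeR adjusted p = 0.0161). Of 3 tested cholangiocyte markers (median -0.78), *Sox9* (log2 fold change -0.78) and *Tstd1* (-0.92) were negative and *Spp1* (1.355) was positive. Each had an unadjusted p under 0.05 by edgeR's test, as had 2322 of 13303 genes tested in either direction. None of the 3 passed after adjustment. The part of these cells in the sterol enzyme values was not tested.

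The signs were mixed among HFS-fed mice. *Fdft1* (log2 fold change 0.25, standard error 0.20), *Sqle* (0.46, 0.51) and *Hsd17b7* (0.22, 0.17) had positive values. *Lss* (log2 fold change -0.36, standard error 0.21), *Cyp51* (-0.32, 0.36), *Msmo1* (-0.22, 0.28), *Nsdhl* (-0.35, 0.35) and *Sc5d* (-0.19, 0.15) had negative ones, of which those of *Msmo1* and *Sc5d* turned positive with library totals, and that of *Cyp51* without the first HFS-fed *Xbp1* fl/fl library. The edgeR adjusted p of these 8 genes lay between 0.434 and 0.758, which does not show that the genotypes are equal.

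**Figure D2:**
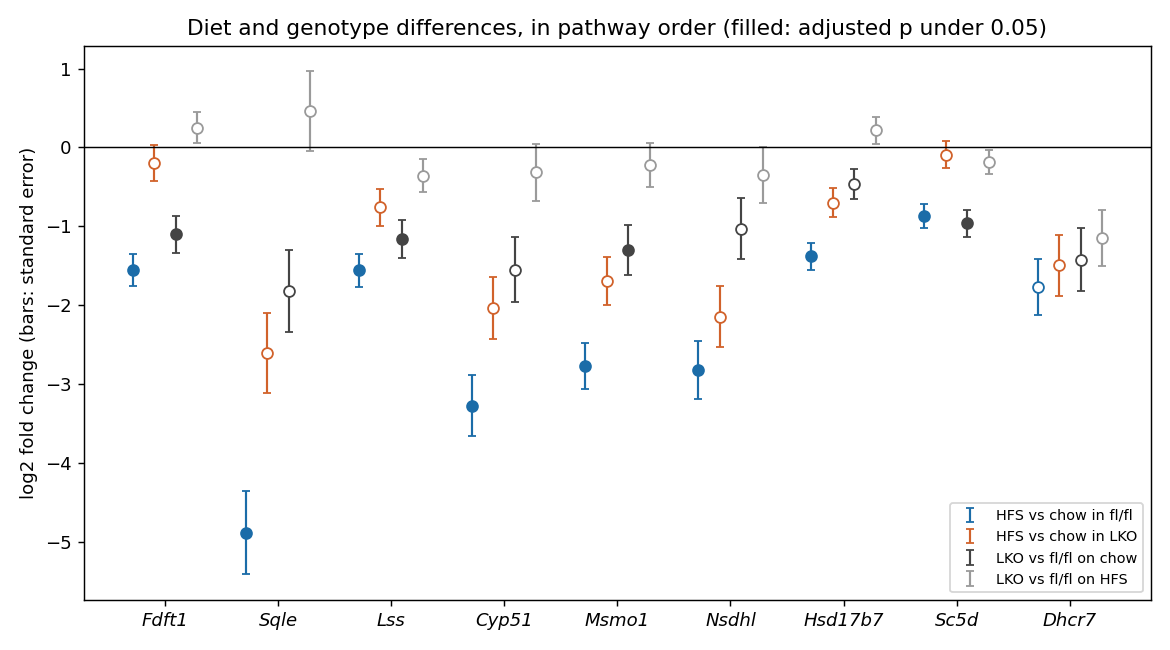
Log2 fold changes with standard errors of the 9 sterol enzyme genes in 4 comparisons, in pathway order; filled points passed the quasi-likelihood test of edgeR (Benjamini-Hochberg adjusted p under 0.05). The diet difference in *Xbp1* fl/fl hepatocytes runs from -0.87 for *Sc5d* to -4.89 for *Sqle*, and in the genotype difference on the HFS diet only *Dhcr7* is below -1; the signs of *Msmo1* and *Sc5d* in that comparison turn positive with library totals.

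Whether the diet differences depended on genotype was tested by the interaction. Its log2 value is the diet difference in *Xbp1* LKO minus that in *Xbp1* fl/fl hepatocytes, so that a positive value means a smaller fall without XBP1. By edgeR's quasi-likelihood test, adjusted after Benjamini-Hochberg, 0 of the 9 genes passed, as did 0.0% of all genes tested. At an unadjusted p under 0.05, 7 genes lay above 0, all but *Nsdhl* and *Dhcr7*, beside 3.69% of all genes tested, and DESeq2 called 1, *Fdft1*, beside 0.158%. With no filter on low counts edgeR called 5 here, 7 for diet in *Xbp1* LKO and 8 for genotype on chow, in a fit whose prior degrees of freedom were 311 in place of 4.39, so these counts are not read as larger differences. All 9 values were positive, with a median of 0.80 against 0.0093 over all genes tested. Markers of other cells had positive values too, 8 of 8 for macrophages (median 1.27), 8 of 8 for endothelial cells (0.72), 6 of 6 tested for stellate cells (1.86) and 3 of 3 tested for cholangiocytes (1.33), and their part in the sterol enzyme values was not tested. Since chow-fed *Xbp1* LKO hepatocytes already had lower values, the diet and genotype differences and their interaction are arithmetically tied, and the loss of a call in *Xbp1* LKO hepatocytes is not by itself a difference between genotypes.

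By gene, the interaction was largest for *Sqle* (log2 value 2.28, standard error 0.72, edgeR adjusted p = 0.687). *Fdft1* had 1.36 (standard error 0.31, edgeR adjusted p = 0.603), with the smallest unadjusted p of the 9 genes, 0.000946. *Cyp51* had 1.24 (standard error 0.54) and *Msmo1* 1.08 (standard error 0.42). None of these values passed in edgeR, so they describe the libraries and do not show that the diet differences depend on genotype. *Lss* had 0.80 (standard error 0.32), *Sc5d* 0.78 (0.23), *Hsd17b7* 0.68 (0.25) and *Nsdhl* 0.68 (0.52). *Dhcr7* had the smallest value, 0.27 (standard error 0.52), and its sign turned negative, to -0.13 at the lowest, without the first *Xbp1* fl/fl library on chow, the second chow-fed *Xbp1* LKO or the first HFS-fed *Xbp1* LKO library.

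Within groups, libraries tended to be high or low for most of the genes at once. The first library of chow-fed *Xbp1* fl/fl mice was the highest of its group for 8 of the 9 genes, all but *Sc5d*, and the third was the lowest for 8. Among HFS-fed *Xbp1* LKO libraries the first was the highest for 8 genes. With the first library of chow-fed *Xbp1* fl/fl mice left out, 7 of the 9 genes passed in the diet comparison of *Xbp1* fl/fl and 3 in the genotype comparison on chow. That library also had the highest macrophage, endothelial and stellate marker sums among chow-fed *Xbp1* fl/fl mice, and the part of these in its sterol enzyme values was not tested. Over the 11 libraries the 36 pairs of genes had Pearson correlations of log2 CPM between 0.71 and 0.99, with a median of 0.90. The points share the libraries, their scaling and the group differences, and after the group means were taken out the correlations ran from -0.03 to 0.90 with a median of 0.60. Over the 8 libraries outside the chow-fed *Xbp1* fl/fl group this median was 0.58. *Sc5d* followed the others least, with a median correlation of 0.83, and of 0.17 after the group means were taken out.

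The protein-coding genes most like the mean profile of the 9 genes were ranked by Pearson correlation over the 11 libraries, among 11837 genes. The closest were *Erg28* (r = 0.99), which encodes a scaffold for sterol enzymes, *Rdh11* (0.98) and *Pmvk* (0.97). *Acat2* (r = 0.96), *Idi1* (0.96), *Mvd* (0.95) and *Mvk* (0.94), all of the mevalonate pathway, were among the first 10, as were *Aldoc* (0.94), *Pltp* (0.94) and *Capn10* (0.94). With Spearman's rank correlation, 5 of these 10 stayed among the first 10. Of the 10 genes, 6 were in the lists of sterol genes used here. The values are a description over libraries that share the same group differences.

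The mevalonate pathway supplies the farnesyl diphosphate that *Fdft1* uses, and genes of it also fell with the HFS diet in *Xbp1* fl/fl hepatocytes by edgeR's quasi-likelihood test. They were *Acat2* (log2 fold change -0.99), *Hmgcs1* (-2.56), *Mvk* (-1.63), *Pmvk* (-1.98), *Mvd* (-3.01), *Fdps* (-2.82) and *Idi1*, which went from 4.80, 2.43 and 2.49 CPM to 0.143, 0.153 and 0.0980 CPM, too few counts to set the size of its fall. *Hmgcs1*, *Mvd* and *Pmvk* passed in 11 of 11 fits that left out a library, *Fdps* in 10, *Acat2* and *Idi1* in 6 and *Mvk* in 5. In *Xbp1* LKO hepatocytes the diet lowered *Fdps* (log2 fold change -3.04) and *Pmvk* (-1.63), which passed in 5 and 4 of the 11 fits. On chow, loss of XBP1 lowered *Acat2* (log2 fold change -0.77, in 8 of 11 fits), *Hmgcs1* (-1.30, in 9) and *Pmvk* (-1.20, in 10). On the HFS diet, loss of XBP1 lowered *Pmvk* (-0.84, in 4 of 11 fits).

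Of 5 other late sterol genes, *Erg28* alone fell with diet in *Xbp1* fl/fl hepatocytes by edgeR's test (log2 fold change -0.92, in 8 of 11 fits), beside 0.293% of all genes tested called lower. *Tm7sf2* had a larger log2 fold change, -1.46, that did not pass (edgeR adjusted p = 0.0523). Among genes of SREBP control, *Insig1* was lower in *Xbp1* LKO on chow (log2 fold change -1.37, in 8 of 11 fits). Of 12 genes of sterol use and export, the transporter genes *Abca1* (log2 fold change 0.92), *Abcg5* (1.34) and *Abcg8* (1.22) rose with diet in *Xbp1* fl/fl, beside 0.135% of all genes tested called higher, each at an edgeR adjusted p = 0.0495 and in 2 of 11 fits. *Abcg8* (log2 fold change -1.11, in 7 of 11 fits) and *Scarb1* (-0.80, in 5 of 11) were lower in *Xbp1* LKO among HFS-fed mice, where 2.16% of all genes tested were called lower. Of 8 lipogenic genes, *Acly* (log2 fold change -1.75), *Fasn* (-1.20) and *Scd1* (-2.88) were lower in *Xbp1* LKO on chow, where 3.02% of all genes tested were called lower, in 10, 9 and 10 of 11 fits. With 1 library left out, the log2 fold changes on chow ran from -2.46 to -1.28 for *Acly* and from -1.67 to -0.85 for *Fasn*. Those of *Scd1* on chow ran from -4.28 to -2.19. *Scd1* was also lower on the HFS diet (-2.10, in 6 of 11 fits), beside 2.16% of all genes tested. Of 6 genes of the non-sterol isoprenoid branches, *Dhdds* was lower in *Xbp1* LKO on chow (log2 fold change -0.50, in 1 of 11 fits) and on the HFS diet (-0.56, in 7 of 11).

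Some exons of these genes lie opposite those of a gene on the other strand, and whether the counting used strand is not given in the sources used here. *Fdft1* shares 774 of its 4227 exon bases (18.3%) with *Ctsb*, so part of its count cannot be told apart from *Ctsb* reads if strand was not used. *Cyp51* shares 166 bases (3.76%) with *Akap9*, and *Lss* shares 381 bases (3.53%) with 4930483K19Rik. The other 6 genes share no exon base with a gene on the other strand.

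Promoter sequence was looked at because the genes moved together. RefSeq promoter windows of GRCm38.p6, each 250 bases before to 50 after a gene's start, were matched by symbol for 7 of the 9 genes, with 9 windows between them; *Fdft1* and *Sqle* had none. In the 250 bases before the start, on both strands, TCACNCCAC, the core of a sterol regulatory element, was in 0 of the 9 windows, against 1.05% of all 32851 windows. CCAAT, the NF-Y box, was in 7 of the 9 windows, against 33.9% of all windows. GGGCGG, the Sp1 box, was in 8 of the 9 windows, against 32.7% of all windows. TGACGTGG, an element of the type bound by XBP1 and ATF6, was in 0 of the 9 windows, against 0.563% of all windows. A match describes the letters of a window and nothing more, and the absence of a match says only that these letters are not in it.

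Shown are the promoters of *Cyp51* (chr5:4104747-4104947, minus strand, 201 bases) and *Nsdhl* (chrX:72918412-72918520, plus strand, 109 bases), which with *Sqle* had the largest falls with the HFS diet in *Xbp1* fl/fl hepatocytes. The runs are RefSeq sequence of GRCm38.p6, kept to bases outside annotated exons, and capitals mark CCAAT and GGGCGG boxes on either strand. The run of *Cyp51* holds a GGGCGG, and that of *Nsdhl* holds 2 CCAAT boxes on the reverse strand, written ATTGG, and a GGGCGG between them. The CCAAT box of *Cyp51* lies downstream of the run shown.
Cyp51: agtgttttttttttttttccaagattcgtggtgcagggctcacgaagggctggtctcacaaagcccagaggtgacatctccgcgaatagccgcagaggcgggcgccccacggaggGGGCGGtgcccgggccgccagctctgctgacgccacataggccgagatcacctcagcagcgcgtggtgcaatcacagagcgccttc
Nsdhl: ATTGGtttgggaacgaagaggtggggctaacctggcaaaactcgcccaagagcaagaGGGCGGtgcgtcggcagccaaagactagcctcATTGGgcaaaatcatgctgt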

How the data were processed

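The counts are those deposited by the authors, whole numbers for each Ensembl identifier without normalization. Their methods name kallisto with tximport, whereas the submitters' processing notes name cutadapt 1.13, STAR, HTSeq 0.6.1p1, DESeq2 and mm10. Which of these made the counts is not stated. The library kit is a stranded mRNA kit in the methods and a total RNA kit in the labels. GENCODE M21 gave symbols and positions for 54165 of 54232 identifiers.

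Analysis was done in R 4.3.3 with edgeR 4.0.16. Genes with low counts were dropped by filterByExpr at a minimum count of 10, libraries were scaled by TMM, and 1 model with a term per group was fitted over the 11 libraries by quasi-likelihood in the default (legacy) mode, p adjusted by Benjamini-Hochberg and a cutoff of 0.05. Chi-square per degree of freedom between replicates was 27.95 to 101.6, so intervals from counting alone are not given.

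The genes and gene lists were chosen with earlier results of these data known. Named are the 9 genes, *Xbp1*, every gene of the pathway lists past the threshold in a group comparison, *Tm7sf2*, the 10 genes most like the 9, genes that overlap their exons, and the leading and lowest markers. Some list genes are not reported here, so not every list is given as a count.

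Alternatives were DESeq2 1.42.0, scaling by RLE or by totals, no filter or another, a fit of the compared groups alone, a block for replicate number, other gene lengths, and the omission of each library in turn. Chosen after seeing the data were removal of the 10 most abundant genes, the length of the longest APPRIS principal transcript, edgeR's newer quasi-likelihood statistics with and without the filter, and the same alternatives for list genes and *Xbp1*.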

Additional observations from a re-analysis of the deposited data

How the results depend on the processing

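In both diet comparisons, the genotype comparison on chow and the interaction, all 9 genes kept the sign of their log2 fold change under TMM, RLE and library totals. RLE size factors, a minimum of 1 CPM in 2 libraries, removal of the 10 most abundant genes and the newer quasi-likelihood statistics moved no count of the 9 genes by over 1.5 times.

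In the order genotype on chow, genotype on the HFS diet, diet in *Xbp1* fl/fl, diet in *Xbp1* LKO and interaction, edgeR called 4, 0, 8, 0 and 0 of the 9 genes. DESeq2 called 6, 1, 9, 6 and 1 in the same order, and the cause was not tested. Library totals gave 7 for genotype on chow, where the median of all genes also shifted. With only the groups compared, and so fewer libraries, genotype on chow gave 1. With no filter on low counts the counts were 8, 1, 9, 7 and 5 on nearly the same fold changes. There edgeR's prior degrees of freedom were 311 in place of 4.39, so these larger counts come with a changed estimate of the spread and not with larger differences. Under the newer statistics, chosen after seeing the data, the prior degrees of freedom were 4.38 with the filter and 7.62 without it, and without it 5, 0, 9, 2 and 0 genes passed.

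With a replicate block, genotype on chow gave 7 and diet in *Xbp1* LKO 3, and with the replicate block by the number in the file names the latter gave 3. Same-numbered libraries come from different mice, and their deviations from the group means had a mean correlation of -0.0086, so the numbers are not read as pairs. Leaving out 1 library at a time gave 0 to 6 genes for genotype on chow, 0 to 1 for genotype on the HFS diet, 2 to 8 for diet in *Xbp1* fl/fl, 0 to 1 for diet in *Xbp1* LKO and 0 in every fit for the interaction.

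Over all genes tested, edgeR called 632, 543, 57, 8 and 0 in the same order. DESeq2 called 1130, 1007, 180, 213 and 29; the cause was not tested. The fit with no filter called 1507, 1438, 499, 722 and 269, and library totals 3000 and 1483 for genotype on chow and on the HFS diet. With only the groups compared, genotype on chow gave 233, diet in *Xbp1* fl/fl 38 and diet in *Xbp1* LKO 0. Diet in *Xbp1* LKO gave 19 with the replicate block and 53 with the replicate block by file number. Leaving out 1 library gave 69 to 762, 184 to 662, 6 to 59 and 0 to 36 for the 4 group comparisons.

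Of the 4 groups, 3 hold 3 libraries and 1 holds 2. The diet groups also differ in pooling, and the model, in which the groups share their estimate of the spread, treats pools and single mice alike. The counts do not separate transcripts. For gene lists and *Xbp1*, 486 values under the alternatives kept their side of the threshold and 172 lost it.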
